A study of Mus musculus with 4 samples.

Results

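The axon guidance genes measured here are the 59 genes of 18767 in the table whose symbols belong to the semaphorin classes 3 to 7, the plexins, the ephrins and Eph receptors, Robo1 to Robo4, Slit1 to Slit3, the netrins and Unc5a to Unc5d. They were chosen by symbol alone, 62 symbols matched, and *Efnb2*, *Ephb4* and *Unc5b* were left out and serve only as reference genes. The 59 comprise 20 semaphorins, 8 plexins, 5 A ephrins, 8 EphA receptors, 2 B ephrins, 4 EphB receptors, 4 Robo receptors, 2 Slits, 3 netrins and 3 Unc5 receptors, which makes 32 ligands and 27 receptors. They were measured by single-cell RNA sequencing (scRNA-seq) of cells sorted from mouse aortas as CD31+, CD45- and TO-PRO-3-, that is, as living cells with an endothelial surface marker and without a leukocyte one. In 2 libraries labelled Jag1 ECKO, the mice carried *Jag1* fl/fl and CDH5 Cre-ERT2, a tamoxifen-activated Cre driven by an endothelial promoter. In 2 libraries labelled Jag1 ECWT, the mice carried the same floxed *Jag1* alleles with Cdh5+/+ and thus no Cre. All were male and on a C57BL/6J background, and control and deleted mice were matched for age. JAG1 is a ligand of the Notch receptors, and the comparison between labels asks how its deletion in endothelial cells (EC) changes the aortic endothelium.

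Guidance genes were named for steering axons, and the same ligand and receptor pairs pass signals between cells of the vessel wall. Ephrins are held in the cell membrane and bind Eph receptors on a neighbouring cell. Semaphorins are secreted or membrane-bound and bind plexins, the secreted class 3 forms mostly with a neuropilin as co-receptor. Netrins bind Unc5 receptors among others, and Slits bind Robo receptors such as Robo1. Robo4 is known for its expression in endothelium.

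In these libraries the level of the targeted gene ran against the labels. *Jag1* stood at 164 and 72.6 CPM (counts of the gene per 1000000 counts in the EC of a library) in the libraries labelled Jag1 ECKO and at 30.8 and 26.4 CPM in those labelled Jag1 ECWT. Here and below, values of a pair of libraries are given in the order of replicate 1 and replicate 2. *Jag1* was thus higher where a deletion was labelled, with a log2 fold change of 2.03 (SE 0.36) and an adjusted p of 0.921 in edgeR's quasi-likelihood test with Benjamini-Hochberg adjustment. A 3′ tag that lies outside the deleted part of a gene checks no deletion, and the sources used here do not say where the deleted part lies. The cause of the higher level was not tested. The paper reports that tamoxifen deleted *Jag1* in such mice, as checked by qRT-PCR of endothelial RNA and by staining of aortas. Those measurements were not analysed here. The groups are called by their labels throughout, and no direction below is assigned to a loss of *Jag1*.

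Of 991 cells, 824 had more than 1200 genes, and clustering divided these into 794 EC-like cells (194, 224, 137 and 239 per library, Jag1 ECKO libraries first) and 30 fibroblast/VSMC-like cells (VSMC, vascular smooth muscle cells). Median depth per cell lay between 4214.8 and 6522.0 estimated transcripts over the libraries, and the summed counts of EC lay between 843202 and 1638595. *Pecam1*, which encodes CD31, was counted in 99.9% of EC and *Cdh5* in 84.0%, whereas *Ptprc*, the gene of CD45, had 7 counts and the lymphatic gene *Prox1* 4 counts in all EC. *Myh11*, a smooth muscle gene that EC are not known for, was counted in 15.5% of EC, at 67.4 and 43.3 CPM against 1.19 and 19.5 CPM. Whether these counts came from other cells was not tested. The libraries shared well barcodes (324 of 373 in at least 2 libraries), as plates of one design do, and no pair of cells held identical counts.

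Guidance genes were unevenly used in EC. Of the 59 genes, 58 had at least 1 count in EC, 32 had 20 or more, 14 had 100 or more, and *Ephb3* had none. Zero counts in 794 EC allow a share of up to 0.378% of cells with a count, which does not limit the cells that express the gene. The 11511 counts of all guidance genes were dominated by a few: *Efna5* held 34.3%, the top 5 genes 64.6% and the top 10 genes 85.2%. A typical EC held a median of 13 guidance counts from 6 genes, and 793 of 794 EC held at least 1. The median level of the guidance genes with a count was 4.91 CPM, beside 8.79 CPM over all 18355 genes with a count in EC. Since each transcript gives 1 tag at its 3′ end, levels were compared between genes without division by length. Shares of cells at or below the 15.5% of *Myh11* were not read as expression in EC at large, except where kinds of EC differed, and 12 guidance genes lay above that share. This floor rests on 1 gene, and another marker would move it. In EC the fibroblast marker *Dcn* had 2500 counts and *Col1a1* 38, beside 164 for *Myh11*. The VSMC marker *Acta2* stood at 335 and 385 CPM against 193 and 181 CPM. Whether EC express these markers themselves was not tested.

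*Efna5*, which encodes the membrane-anchored ligand ephrin-A5, was the highest of all. The gene lies on chromosome 17 of GRCm38, from 62604184 to 62881317 on the minus strand. It stood at 777 and 770 CPM in the libraries labelled Jag1 ECKO and at 801 and 889 CPM in those labelled Jag1 ECWT, and ranked 144 among all genes in EC. It was counted in 90.1% of EC (95% exact binomial interval, 87.8 to 92.0), and in 79.4% after each cell was thinned to 2500 counts. No other guidance gene came near it in any library. *Efna1*, the other A ephrin with more than 20 counts, encodes a ligand induced by inflammatory signals in EC and stood at 62.2 and 31.7 CPM against 67.6 and 63.3 CPM. *Efna2*, *Efna3* and *Efna4* had 10, 1 and 4 counts in all EC.

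Among the EphA receptors, *Epha4* alone passed 100 counts. It encodes a receptor that binds both A and B ephrins, and stood at 137 and 116 CPM in the libraries labelled Jag1 ECKO and at 122 and 135 CPM in those labelled Jag1 ECWT. Its levels were even, with a coefficient of variation of 7.91% over the 4 libraries. *Epha2*, a receptor of ephrin-A1, averaged 10.5 ± 4.7 CPM (SD, n = 4) and *Epha5* 5.11 ± 3.89 CPM. In thinned EC, *Efna5* was counted in 79.4% of cells, *Epha4* in 26.8% and both in 21.4%, beside the 21.3% that the product of the single shares gives. Both shares lay close together in every library (20.4% and 20.5%, 20.3% and 20.2%, 19.4% and 19.4%, 24.35% and 23.96%). Cells with the ligand thus held the receptor about as often as cells in general, at 26.9%.

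The promoters of *Efna5* and *Epha4*, the A ephrin and EphA receptor with the highest levels, are shown as RefSeq gives them on GRCm38.p6, 250 bases that end just before the transcription start, on the strand of the gene. They stand at chr17:62881318-62881567 and chr1:77515089-77515338, both on the minus strand, and capitals mark GGAA on either strand (GGAA or TTCC), the core letters of ETS factor sites.
Efna5: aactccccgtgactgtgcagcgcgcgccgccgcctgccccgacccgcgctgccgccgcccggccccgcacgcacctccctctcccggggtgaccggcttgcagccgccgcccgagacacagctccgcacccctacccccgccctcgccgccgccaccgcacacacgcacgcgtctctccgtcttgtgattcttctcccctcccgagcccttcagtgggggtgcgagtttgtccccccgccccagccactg
Epha4: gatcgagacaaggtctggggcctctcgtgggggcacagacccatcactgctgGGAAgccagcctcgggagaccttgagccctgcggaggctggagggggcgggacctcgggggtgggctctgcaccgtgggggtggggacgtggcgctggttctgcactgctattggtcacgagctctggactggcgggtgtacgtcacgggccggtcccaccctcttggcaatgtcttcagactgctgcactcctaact
No match lay in the *Efna5* window. The *Epha4* window held 1 match, 198 bases before the start, which was part of the only TGGGAA there, the core letters bound by RBPJ, the DNA-binding partner of Notch. The 51 guidance genes in the table have 67 promoters, since some have several starts. GGAA was found in 62 of the 67 and in 93.4% of all 32851 promoters. TGGGAA, searched on both strands, was found in 12 of 67, or 17.9%, and in 21.6% of all. These matches describe the letters of a window of 250 bases and no more.

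Semaphorins were the largest ligand class, with 20 of the 59 genes. *Sema3f* encodes a secreted class 3 ligand that binds mainly neuropilin 2, and stood at 222 and 176 CPM against 234 and 220 CPM. *Sema6a*, a transmembrane ligand of plexins A2 and A4, followed at 159 and 114 CPM against 101 and 128 CPM. The levels of these genes did not overlap over the 4 libraries.

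The next semaphorins were lower by a wide step. *Sema6d*, a transmembrane ligand of plexin A1, averaged 51.2 ± 4.5 CPM. *Sema4d*, the ligand of the B plexins, averaged 42.5 ± 16.0 CPM. *Sema7a*, a membrane-anchored ligand of plexin C1 and integrins, averaged 33.9 ± 8.1 CPM. The range of *Sema4d* met those of both others. Of the 20 semaphorins, 11 had 20 or more counts, near the share of 32 of all 59 guidance genes, and 5 had fewer than 5. *Sema3g*, known from arterial endothelium, had only 14 counts in EC (a gene named after its value was seen).

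Of the 8 plexins, 3 stood at similar levels. *Plxna4* stood at 165 and 195 CPM against 184 and 184 CPM, *Plxna2* at 165 and 148 CPM against 160 and 183 CPM, and *Plxnd1* at 171 and 104 CPM against 147 and 130 CPM. The levels of these neighbours overlapped, so their order is not fixed by 4 libraries. Plexin D1 is the receptor of the endothelial repulsive signal semaphorin 3E, whose gene *Sema3e* had 6 counts in EC, and plexins A2 and A4 bind class 6 semaphorins. *Plxnb2* averaged 31.4 ± 5.8 CPM and *Plxna1* 18.996 ± 1.902 CPM. The exons of *Plxna4* and *Plxna1* overlap those of antisense genes, and the sources used here do not say whether strand was used in counting. Of the neuropilins, *Nrp1* stood between 1131 and 1448 CPM, and *Nrp2*, the main partner of *Sema3f*, at 52.7 and 10.4 CPM against 20.2 and 3.48 CPM.

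In thinned EC, 70.3% of cells held a semaphorin count, 69.3% a plexin count and 49.0% both, beside a product of 48.7%. For *Sema3f* and the A plexins the shares were 39.5%, 54.9% and 22.6%, beside a product of 21.7%. For *Sema6a* and its receptors *Plxna2* or *Plxna4* they were 23.0%, 52.8% and 11.7%, beside a product of 12.1%. Ligand and receptor were therefore found in the same EC about as often as their separate shares give.

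*Ntn1* was the highest of the netrins. *Ntn1*, which encodes netrin-1, stood at 232 and 105 CPM in the libraries labelled Jag1 ECKO and at 187 and 157 CPM in those labelled Jag1 ECWT, and was counted in 51.1% of EC. The 2 libraries labelled Jag1 ECKO were thus its highest and its lowest. *Ntn4* averaged 10.99 ± 3.501 CPM and *Ntn3* 10.2 ± 2.1 CPM, and the exons of *Ntn3* overlap those of *Tbc1d24* on the same strand. Of the Unc5 receptors, *Unc5d* averaged 7.26 ± 5.23 CPM and *Unc5c* 4.82 ± 2.60 CPM, whereas the left-out *Unc5b* stood between 25.6 and 43.2 CPM. In thinned EC, *Ntn1* was counted in 30.1%, the 3 Unc5 genes in 3.28% and both in 0.656%, beside a product of 0.986%, a count that leaves *Unc5b* out. By library, both were counted in 1.66% and 0.901% against 0% and 0%, shares that rest on few cells.

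*Slit2* averaged 5.20 ± 3.19 CPM and *Slit3* 3.53 ± 1.40 CPM, and the 2 genes together were counted in 1.71% of thinned EC, against 8.27% for the Robo genes. Most of that share was *Robo4*, at 6.17%, with *Robo1* at 1.44%. *Robo1*, a receptor of Slits, averaged 4.51 ± 2.64 CPM. *Robo4* was higher and uneven, at 50.6 and 20.1 CPM against 43.9 and 10.4 CPM. It was counted in 9.07% of EC (7.16 to 11.3) and in 0 of 30 fibroblast/VSMC-like cells, which allows a share of up to 10% with a count and a level of up to 10.8 CPM, beside 27.3 CPM in all EC. Among the B class, *Efnb1* averaged 18.2 ± 4.2 CPM, *Ephb6*, a receptor without kinase activity, 13.1 ± 1.3 CPM and *Ephb2* 3.80 ± 2.56 CPM, all well under the left-out *Efnb2*, which stood between 371 and 469 CPM.

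**Figure D1:**
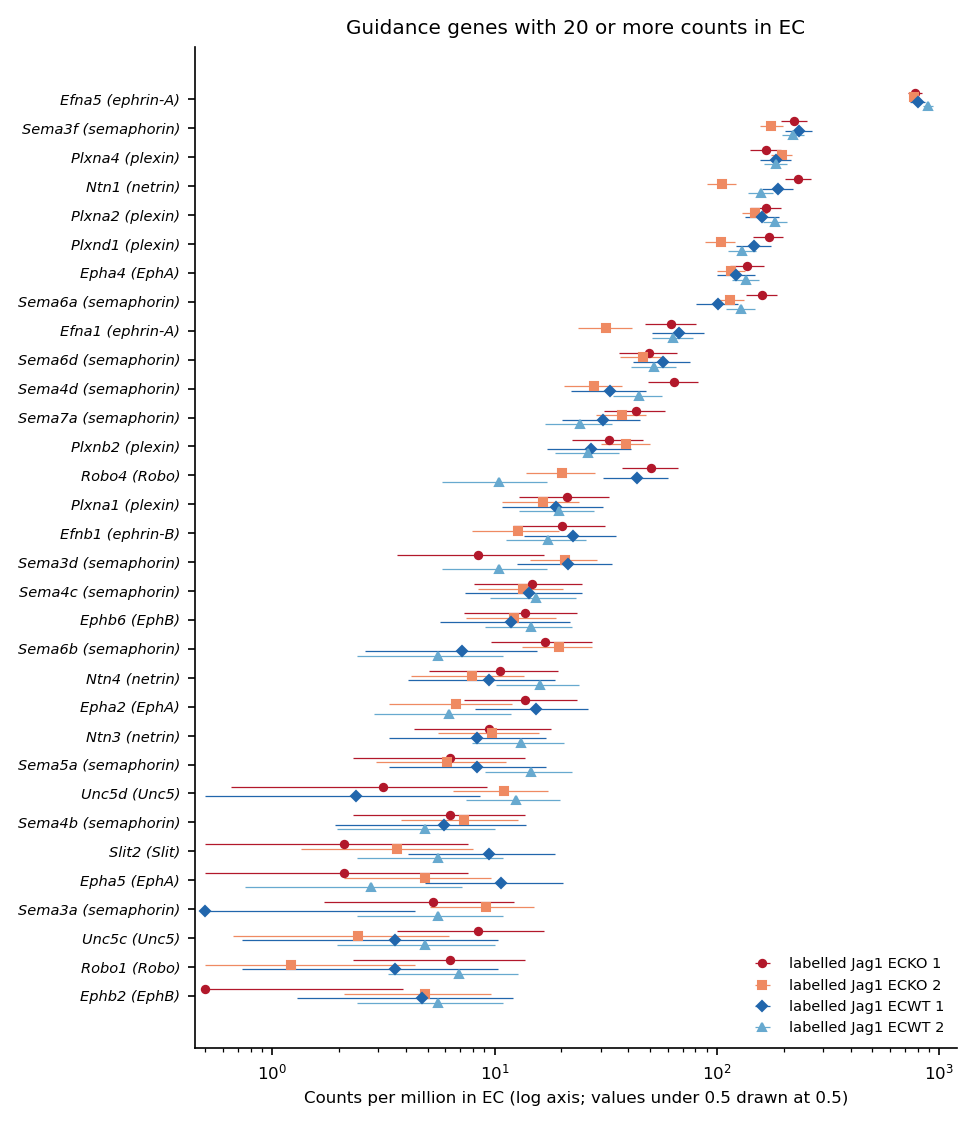
Levels of the 32 guidance genes with 20 or more counts in EC, in CPM on a log axis, 1 point per library, with 95% Poisson intervals that cover counting error only. *Efna5* stands apart at 770 to 889 CPM, and the next gene, *Sema3f*, reaches 234 CPM.

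By class, A ephrins held 36.4 ± 2.3% of the guidance counts in EC (SD, n = 4), plexins 22.6 ± 0.8%, semaphorins 22.5 ± 1.1%, netrins 7.92 ± 1.77% and EphA receptors 6.44 ± 0.12%. Robo receptors held 1.57 ± 0.74%, and B ephrins, EphB receptors, Unc5 receptors and Slits each held less than 1%. Ligands held 68.2% and 67.1% in the libraries labelled Jag1 ECKO and 67.6% and 69.2% in those labelled Jag1 ECWT, or 68.0 ± 0.9% in all. The share of ligands thus overlapped between labels and varied by little more than 2 percentage points. Netrins held 9.96% and 5.74% against 8.46% and 7.52%, and Robo receptors 2.25% and 1.06% against 2.15% and 0.814%.

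**Figure D2:**
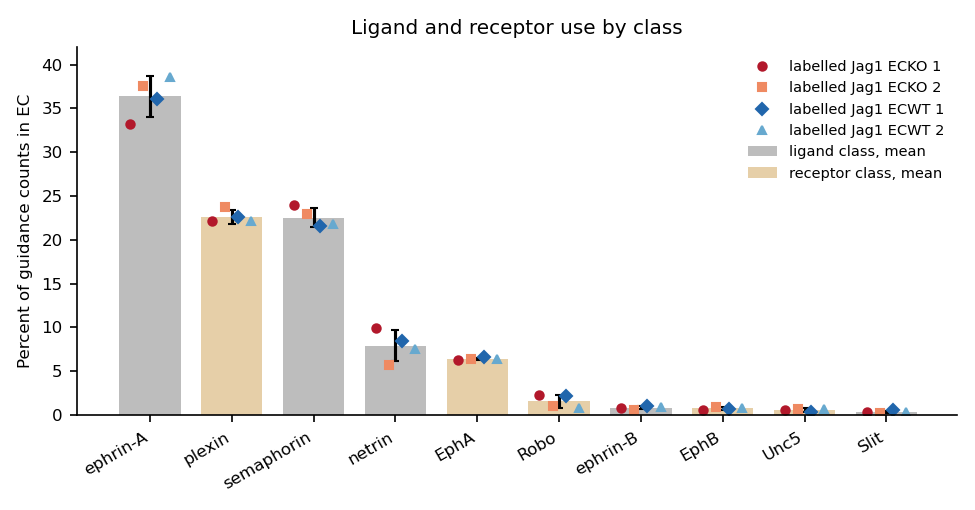
Percent of the guidance counts in EC held by each class. Bars give the mean of 4 libraries with its SD, and points the single libraries. A ephrins lead at 36.4%, and plexins and semaphorins follow at 22.6% and 22.5%.

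Levels were then followed over the 13 EC-like clusters. The clusters were drawn from the same cells, so their levels are a description with no test. *Efna5* lay between 638 and 1191 CPM in 11 of the clusters but at 45.2 CPM in cluster 9 (8 counts in 32 cells) and at 101 CPM in cluster 13 (7 counts in 17 cells). *Robo4* did the opposite, with 294 CPM in cluster 9 (52 counts) and 549 CPM in cluster 13 (38 counts), and at most 39.1 CPM elsewhere. Cluster 9 was led by *Lrg1*, *Fabp4*, *Pde2a*, *Nr2f2* and *Nrp2*, and cluster 13 by *Gpihbp1*, *Igfbp3* and *Cd36*. They were high in 3 and 4 of the 7 capillary and lipid-handling markers, and are called the lipid-handling clusters. Of the other marker lists, cluster 9 was high in 3 of 20 dissociation genes and in 1 VSMC, 1 lymphatic and 1 EC marker. Cluster 13 was high in 1 dissociation gene and 1 EC marker.

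The split was seen in each library. *Robo4* was among the variable genes from which the clusters were drawn, and *Efna5* was not. Cells of all libraries were clustered together, so for *Robo4* the split within a library is partly built in and is no separate test. In the lipid-handling clusters, *Efna5* stood at 54.4 and 64.5 CPM in the libraries labelled Jag1 ECKO and at 74.9 and 54.4 CPM in those labelled Jag1 ECWT, from 6, 5, 3 and 1 counts. In all other EC it stood at 872 and 805 CPM against 837 and 900 CPM. *Robo4* stood at 372 and 271 CPM against 624 and 163 CPM in the lipid-handling clusters, and at 8.34 and 7.69 CPM against 14.9 and 8.45 CPM in other EC. For neither gene did the levels of both kinds of cell overlap over libraries. After thinning, *Robo4* was counted in 60% of the cells of these clusters and 2.79% of other EC, and *Efna5* in 20% and 83.1%. Thus 90 of the 133 counts of *Robo4* came from 49 of 794 EC.

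Other receptors and ligands were also higher in the lipid-handling clusters. *Plxnd1* stood at 284 CPM there and 124 CPM in other EC, and *Sema6a* at 276 and 117 CPM, the latter through cluster 9 (344 CPM) and not cluster 13 (101 CPM). *Sema6a* was higher in each of the 4 libraries. The library labelled Jag1 ECWT replicate 2, with 3 of these cells, was the exception for *Plxnd1*, at 109 CPM against 130 CPM. *Efnb1* stood at 77.1 and 14.1 CPM, and *Unc5c* at 40.6 and 2.60 CPM from 10 and 12 counts. Of these 10 counts of *Unc5c*, 7 came from Jag1 ECKO replicate 1, without which its level was 22.1 CPM, and Jag1 ECKO replicate 2 had 0 counts in 13 cells. *Unc5c*, like *Robo4*, was among the variable genes from which the clusters were drawn. By contrast, *Plxna4* was lower, at 81.2 and 189 CPM, and lower in each of the 4 libraries. *Sema3f* was lower too, at 114 and 213 CPM, also in each library. Among the left-out genes, *Efnb2*, an arterial marker, stood at 166 and 432 CPM, and *Ephb4*, a venous marker, at 207 and 75.1 CPM. *Nrp2* stood at 313 and 2.60 CPM. Chosen after its values were seen, *Sema5b* had 9 of its 11 EC counts in these clusters.

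**Figure D3:**
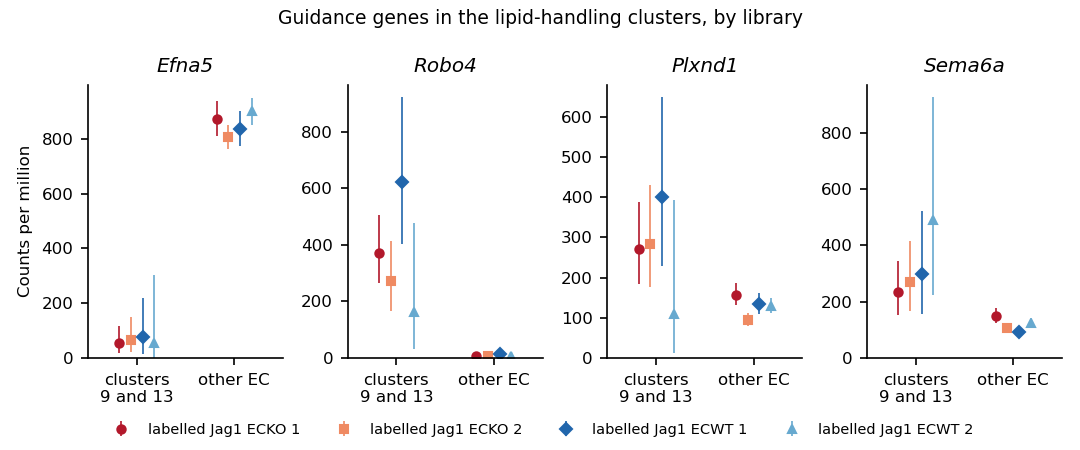
Levels of *Efna5*, *Robo4*, *Plxnd1* and *Sema6a* in the lipid-handling clusters 9 and 13 and in all other EC, in CPM, 1 point per library with a 95% Poisson interval for counting error. *Efna5* is below 75 CPM in these clusters and above 800 CPM elsewhere in every library, and *Robo4* is at least 163 CPM in these clusters and at most 14.9 CPM elsewhere.

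Lipid-handling cells were unevenly spread over the libraries, with 22 and 13 cells in those labelled Jag1 ECKO and 11 and 3 in those labelled Jag1 ECWT, or 11.3%, 5.80%, 8.03% and 1.26% of EC. The order of the libraries was the same for the level of *Robo4* over all EC (50.6, 20.1, 43.9 and 10.4 CPM). Within either kind of cell the order of the libraries was another, and without these clusters *Robo4* did not pass the filter of the test between labels. Whether the share of lipid-handling cells sets the level of *Robo4* in a library was not tested.

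Among the remaining clusters, *Sema7a* stood at 125 CPM in cluster 2, which was led by *Vcan* and *Nog*, and at 22.2 CPM in other EC. Its highest level was in the lipid-handling cluster 13, at 246 CPM from 17 counts in 17 cells, and over both lipid-handling clusters it stood at 81.2 CPM against 30.9 CPM. That difference rested on Jag1 ECWT replicate 1, with 10 of the 20 counts, without which it was 48.5 against 33.2 CPM, and in Jag1 ECKO replicate 2 *Sema7a* was lower there, at 25.8 against 37.8 CPM. In cluster 2 it was higher in each library with 10 or more cells of the cluster, at 190 and 118 CPM in those labelled Jag1 ECKO and 100 CPM in Jag1 ECWT replicate 2. *Sema7a* was itself among the leading genes of this cluster. *Ntn1* ranged from 69.0 CPM in cluster 3, led by *Sfrp2* and *Thbs1*, to 286 CPM in cluster 7 and 306 CPM in cluster 8. The libraries took unlike shares of these clusters, and 26 of the 39 cells of cluster 8 came from Jag1 ECKO replicate 1, the library highest in *Ntn1*. Within that library *Ntn1* stood at 299 CPM in cluster 8 and 224 CPM in other EC, and at 374 CPM in cluster 7 and 205 CPM in other EC. In Jag1 ECWT replicate 1 it stood at 253 CPM in cluster 7 and 175 CPM in other EC. In cluster 3 it was lower in each library with 10 or more cells there, at 50.3, 69.6 and 64.5 CPM against 108, 198 and 186 CPM in Jag1 ECKO replicate 2 and the libraries labelled Jag1 ECWT. *Plxna2* was the most even of the 14 genes with 100 or more counts, at 122 to 202 CPM over the 13 clusters. Cluster 12, 29 cells all from the library labelled Jag1 ECKO replicate 1, had early response genes known to follow cell dissociation as its leading genes (*Nr4a1*, *Junb* and *Egr1*). Of the 14 genes it held the highest levels of *Efna5* (1191 CPM), *Epha4* (202 CPM), *Plxna2* (202 CPM) and *Sema4d* (101 CPM, 15 counts), and the lowest of *Efna1* (26.9 CPM, 4 counts).

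**Figure D4:**
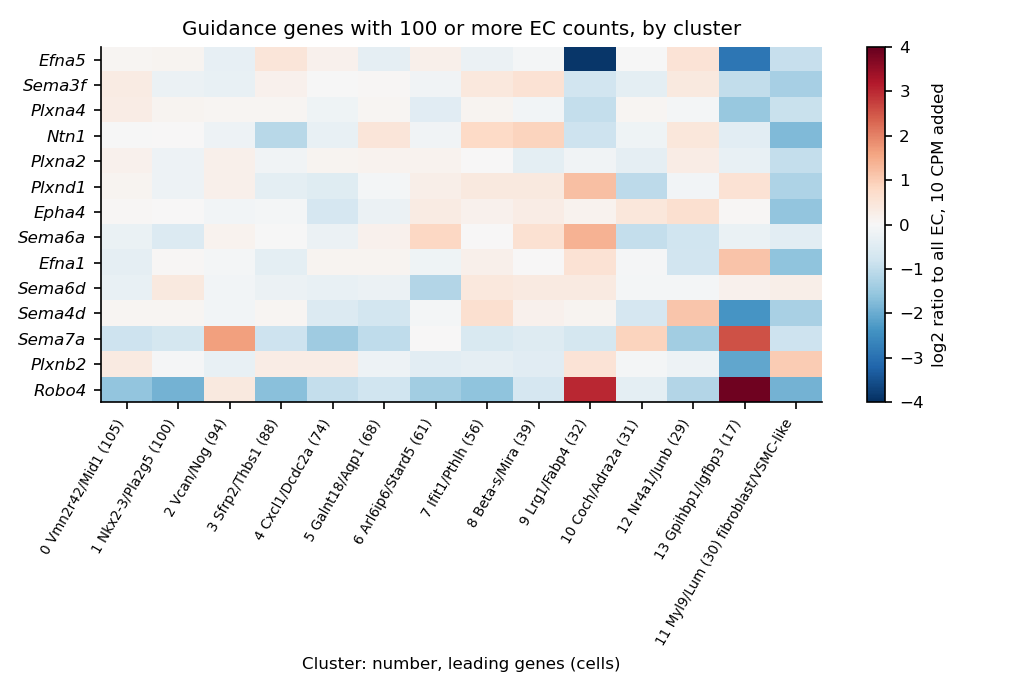
Levels of the 14 guidance genes with 100 or more EC counts in each cluster, as the log2 ratio to the level in all EC after adding 10 CPM to both. Columns are clusters with their leading genes and number of cells, with the fibroblast/VSMC-like cells last. *Efna5* is lowest and *Robo4* highest in clusters 9 and 13.

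The 30 fibroblast/VSMC-like cells, with a median of 7603.5 counts against 5245.5 in EC, shared the leading gene with EC, *Efna5* at 423 CPM, and differed from them in lower members. *Slit3* stood at 75.9 CPM there and at 3.29 CPM in EC, and *Sema5a* at 145 and 9.04 CPM, 23.1 and 16.0 times as high. Of the 21 counts of *Slit3*, 20 came from the 13 cells on the smooth muscle side, as did 30 of the 40 counts of *Sema5a*, a transmembrane semaphorin. Per 100 counts of *Myh11*, *Slit3* had 2.19 counts in the smooth muscle side cells and 9.76 in EC. *Sema3c* and *Epha3*, chosen after their values were seen, had 8 and 7 counts, all on the smooth muscle side, and *Unc5c* also had 8.

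Fibroblast side cells held *Efna5* and *Sema6a*. *Efna5* stood at 718 CPM in these 17 cells and at 147 CPM on the smooth muscle side, and was counted in 73.3% of all 30 cells. On the smooth muscle side it was thus below *Sema5a*, at 210 CPM. *Sema6a* had 23 of its 25 counts on the fibroblast side and *Sema6d* all 17. *Epha4* stood at 36.1 CPM in the 30 cells against 127 CPM in EC, and *Ntn1* at 39.7 against 159 CPM. *Robo4*, *Epha2* and *Unc5d* had no count in these cells, which allows up to 10.8 CPM. *Ephb3* had 5 counts there and none in EC.

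Between the labels, no guidance gene passed the test in EC. The counts of all EC of a library were added up, and 24 guidance genes (14 ligands and 10 receptors) passed the filter on low counts. In edgeR's quasi-likelihood test with Benjamini-Hochberg adjustment over all 9485 genes, 0 of the 24 had an adjusted p below 0.05, beside 0.0% of all genes. At an unadjusted p below 0.05 there was 1 of 24, or 4.17%, beside 4.39% of all genes. DESeq2, run without the filter on 58 guidance genes, gave 0 adjusted and 1 unadjusted, beside 0.556% of all genes, and the 1 gene was *Sema5b*, with 5, 6, 0 and 0 counts. The levels of the labels did not overlap for 6 of 24 genes, or 25%, beside 34.5% of all genes tested. Counts this small and near the background are no result about the guidance genes. Their median log2 fold change was -0.043, and -0.0013 over all genes tested. Nothing in the labels says that libraries of one label came from separate animals, so p-values measure only the spread between these libraries, and an exact permutation test of 2 against 2 cannot go below p = 0.3333.

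*Sema6b*, a transmembrane class 6 semaphorin, was the 1 gene at an unadjusted p below 0.05. It stood at 16.9 and 19.5 CPM in the libraries labelled Jag1 ECKO and at 7.12 and 5.56 CPM in those labelled Jag1 ECWT, from 16, 32, 6 and 8 counts. Both Jag1 ECKO libraries were above both others. Its log2 fold change was 1.58 (SE 0.47), with an adjusted p of 0.921 in edgeR's quasi-likelihood test. Over the alternatives the adjusted p lay between 0.114 and 1.000. *Sema6b* was no longer at an unadjusted p below 0.05 without Jag1 ECKO replicate 2 (log2 fold change 1.39), without Jag1 ECWT replicate 2 (1.43) and with DESeq2 (1.58). The number of guidance genes below 0.05 was 3 of 30 tested without Jag1 ECKO replicate 1, beside 11.3% of all genes, and 1 of 26 (*Sema4d*) without Jag1 ECKO replicate 2, beside 11.4%. It was 2 of 29 without Jag1 ECWT replicate 1, beside 2.25%, and 0 of 23 without Jag1 ECWT replicate 2, beside 2.58%.

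The next genes in order of p were less apart. *Sema7a* was at 43.2 and 37.2 CPM against 30.8 and 24.3 CPM (log2 fold change 0.58, SE 0.28). *Efna1* had a log2 fold change of -0.51 (SE 0.30). It was the 1 guidance gene that any alternative called: without the library labelled Jag1 ECKO replicate 1, its log2 fold change was -0.95 with an adjusted p of 0.0425 by edgeR's test, in a fit that called 1.47% of all genes. Without Jag1 ECKO replicate 2 the log2 fold change was -0.11, with an adjusted p of 0.905. With all libraries its adjusted p was 0.921, and over the alternatives it lay between 0.0425 and 1.000. *Plxnb2* had a log2 fold change of 0.46 (SE 0.29), *Sema6a* of 0.25 (SE 0.22), *Ntn4* of -0.52 (SE 0.50) and *Sema3f* of -0.17 (SE 0.18). *Robo4* had one of 0.45 (SE 0.60), *Efnb1* of -0.28 (SE 0.39) and *Sema6d* of -0.16 (SE 0.23). All of these missed the threshold.

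*Efna5* had the narrowest limits of the 24 guidance genes tested, with a log2 fold change of -0.11 (SE 0.17). Of other abundant genes, *Ntn1* had one of -0.04 (SE 0.30), *Plxna4* of 0.01 (SE 0.19), *Plxna2* of -0.12 (SE 0.19), *Epha4* of -0.02 (SE 0.19) and *Plxnd1* of -0.01 (SE 0.23). An interval of 2 SE around the value of *Efna5* runs from -0.45 to 0.24. Of the 24 genes, 18 had a value within 0.3 of 0 on the log2 scale, while SEs ranged from 0.17 to 0.78. Changes of the size seen for *Sema6b* could thus have missed the adjusted threshold. This limit was not confined to low genes. *Jag1*, with 339 counts in EC, stood at 2.03 (SE 0.36) and did not pass adjustment by edgeR's test either.

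**Figure D5:**
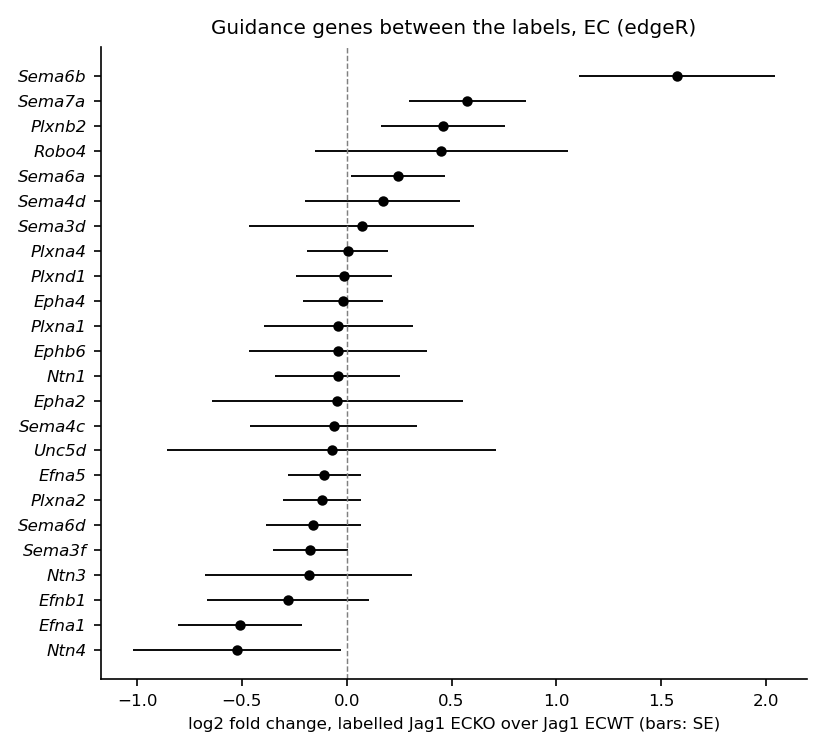
Log2 fold change of the 24 guidance genes tested, libraries labelled Jag1 ECKO over libraries labelled Jag1 ECWT, in EC, with bars of 1 SE (edgeR). *Sema6b* lies farthest from 0 at 1.58, and 18 of the 24 genes lie within 0.3 of 0.

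Genes that act with the guidance receptors showed the same picture. Of 32 co-receptors and further ligands and receptors, 20 were tested and 0 had p below 0.05 by edgeR's test; *Nrp1* had a log2 fold change of -0.25 (SE 0.17) and *Nrp2* of 1.497 (SE 0.83) (77 of its 89 counts came from the lipid-handling clusters). Of 83 genes of the signalling downstream, 59 were tested, 1 was higher and 2 were lower at an unadjusted p below 0.05, beside 4.39% of all genes, and 0 passed adjustment. The higher gene was *Myh9*, non-muscle myosin, at 543 and 394 CPM against 340 and 266 CPM (log2 fold change 0.65, SE 0.20, adjusted p = 0.921). The lower genes were *Rap1a*, a small GTPase of cell adhesion, at -0.65 (SE 0.25), and *Chn2*, a Rac-inactivating protein, at -1.03 (SE 0.44), both with an adjusted p of 0.921 by edgeR's test.

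Marker genes of other cells and of tissue handling were also set beside the labels, and none passed adjustment by edgeR's test. The 10 VSMC markers, all with counts in EC, summed to 619 and 609 CPM in the libraries labelled Jag1 ECKO and to 419 and 360 CPM in those labelled Jag1 ECWT. These sums did not overlap. At an unadjusted p below 0.05, 4 of the 6 tested were higher and 1 was lower, beside 4.39% of all genes, the share that holds for the lists that follow as well. The 20 dissociation genes summed to 3564 and 2051 CPM against 2183 and 1946 CPM, with 5 of 19 tested higher at an unadjusted p below 0.05 and sums that overlapped between labels. The 10 fibroblast markers, all counted in EC, summed to 1245 and 1322 CPM against 1337 and 1961 CPM, sums that did not overlap. Of the 8 tested, 0 were at an unadjusted p below 0.05 and 0 had a log2 fold change above 0 (median -0.33). The 7 capillary and lipid-handling markers summed to 941 and 275 CPM against 219 and 239 CPM, sums that did not overlap, with 2 of 5 tested higher at an unadjusted p below 0.05. *Sema6b* stood at 44.7 CPM in the lipid-handling clusters and 11.03 CPM in other EC (29.4 CPM in these clusters without Jag1 ECKO replicate 1), and *Efna1* at 97.4 and 50.8 CPM. Without these clusters the log2 fold change of *Sema6b* between labels was 1.39, that of *Sema7a* 0.83 and that of *Efna1* -0.62, with an adjusted p of 0.912 for each by edgeR's test. Without the cluster led by dissociation genes the values of *Sema6b*, *Sema7a* and *Efna1* were 1.64, 0.67 and -0.44, with adjusted p of 0.897, 0.897 and 0.926 by edgeR's test. Beyond that, the part of the other lists in the values of these 3 genes was not tested. *Slit3* and *Sema5a*, 23.1 and 16.0 times as high in fibroblast/VSMC-like cells as in EC, did not pass the filter of the test between labels.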

How the data were processed

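Per the labels and methods, the authors used STAR and GRCm38 for alignment, and what they deposited are estimated counts, 1 per gene and cell, corrected for repeated UMIs (unique molecular identifiers) and not normalized. STAR's version and the counting tool are not given in the sources used here. Columns were matched to the 4 libraries by name. Estimated counts were rounded. Seurat 5.3.0 (R 4.3.3) clustered the cells with more than 1200 genes (2000 variable genes, 12 principal components, lowest resolution with 14 clusters, 2.3). Clusters with 6 or more fibroblast and VSMC markers at 3 times their level elsewhere were called fibroblast/VSMC-like, and the others, with 7 or more EC markers, EC-like. These thresholds and the name of the lipid-handling clusters (3 or more markers) were set after the clusters were seen. Doublets were not called. Library sums of the EC counts went into edgeR 4.0.16 (TMM, filterByExpr, quasi-likelihood test), with the 2 libraries of each label and with DESeq2 1.42.0 as an alternative. Shares of cells were also taken after thinning to 2500 counts, which left out 32 EC. CPM are summed counts scaled to 1000000 per library.

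Named were up to 5 genes per class with the highest mean CPM and 20 or more EC counts, the 10 smallest p-values and any other unadjusted p below 0.05, and genes with 20 or more counts in fibroblast/VSMC-like cells at over 3 times the EC level or in a cluster at over 5 times. Other names were chosen after their values were seen. The members, lists and tests were chosen with earlier results of these data known. Alternatives were another scaling, no filter, other cell sets, DESeq2 and leaving out each library. The fit was tested on simulated data, with a spread between libraries that was set and not taken from these libraries. At an adjusted p below 0.05 by edgeR's test it recovered 30% of genes with a log2 change of 1 and 84% with a change of 2. It called 0 unchanged genes. Intervals and floors (3 counts) cover counting error only.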

Additional observations from a re-analysis of the deposited data

How the results depend on the processing

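Of 297 values of 22 named genes between labels under the alternatives, 252 kept their direction and their side of the threshold, 1 newly passed (*Efna1*, in the report) and 44 changed sign, 23 of them in alternatives other than leaving out a library. None of the reversed values passed adjustment. The cause of these changes was not tested.

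The number of guidance genes at an unadjusted p below 0.05, 1 in the report, was 2 (of 58 tested) without the filter on low counts, 2 (of 24) with more than 1500 genes per cell, 2 (of 24) without the cluster led by dissociation genes, 2 (of 23) without the lipid-handling clusters (an alternative chosen after seeing the data) and 0 (of 15) after thinning. Of all genes, 4.46%, 4.6%, 4.67%, 4.74% and 4.56% were below it in these fits. Leaving out 1 library gave 0 to 3 at an unadjusted p and 0 to 1 at an adjusted p: 3 and 1 without Jag1 ECKO replicate 1, 2 and 0 without Jag1 ECWT replicate 1, and 0 and 0 without Jag1 ECWT replicate 2, in fits with 11.3%, 2.25% and 2.58% of all genes at an unadjusted p below 0.05 and 30, 29 and 23 guidance genes tested. Genes of both pathway lists at an unadjusted p, 3 of 79 in the report, were 10 of 113 without the filter, 5 of 81 with more than 1000 (4.51% of all genes) and 5 of 78 with more than 1500 genes per cell, 7 of 77 without the lipid-handling clusters, 1 of 113 with DESeq2 (0.556% of all genes) and 0 to 13 when 1 library was left out, the 13 of 85 in the fit with 11.3% of all genes. EphA receptors held 6.63% after thinning and Slits 0.539% over all cells.

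Signs changed as follows on the log2 scale. Without the filter, *Epha4* was at 0.0051 and *Plxnd1* at 0.0089. With total counts in place of TMM, *Plxna4* was at -0.027, and over all cells at -0.054. With more than 1000 genes, *Epha2* was at 0.23 and *Plxnd1* at 0.086. With more than 1500 genes, *Efnb1* was at 0.0090, *Unc5d* at 0.15 and *Plxnd1* at 0.022. With EC chosen per cell, *Epha2* was at 0.038, *Plxnd1* at 0.032 and *Plxna4* at -0.00091. After thinning, *Sema3f* was at 0.036, *Sema4d* at -0.19 and *Plxnd1* at 0.0083. Without the dissociation cluster, *Ephb6* was at 0.010, *Unc5d* at 0.0047, *Plxnd1* at 0.021 and *Plxna4* at -0.00097. Without the lipid-handling clusters, *Ntn1* was at 0.0033, *Ephb6* at 0.036 and *Epha2* at 0.047. With DESeq2, *Plxnd1* was at 0.0053. When 1 library was left out, *Efna5* ranged from -0.21 to 0.024, *Epha2* from -0.58 to 0.63, *Epha4* from -0.11 to 0.12, *Ephb6* from -0.19 to 0.19, *Ntn1* from -0.62 to 0.40, *Plxna1* from -0.15 to 0.087, *Plxna2* from -0.24 to 0.039, *Plxna4* from -0.19 to 0.17, *Plxnd1* from -0.32 to 0.27, *Robo4* from -0.31 to 1.68, *Sema4d* from -0.42 to 0.65 and *Unc5d* from -1.41 to 1.70.

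No paired analysis was possible because GEO's labels hold no number or batch that ties a library of one label to a library of the other. With 2 libraries per label, SEs of 0.17 to 0.78 on the log2 scale set the limit of the comparison, and 35 of the 59 guidance genes did not pass the filter.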

Other observations

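In the 167 cells with 1200 or fewer genes, left out of all comparisons, 742 guidance counts from 41 genes were found at a median depth of 1856 counts per cell. *Efna5* stood at 707 CPM there, *Sema3f* at 218 CPM and *Plxna4* at 189 CPM.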
